A study of Mus musculus with 8 samples.

Results

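The contractile genes of the myofibroblast were examined in tendon-derived stem cells (TSCs). The 10 genes were chosen by their symbols: Acta2, Tagln, Myl9, Cnn1, Cald1, Tpm1, Tpm2, Actg2, Myh11 and Postn. All 10 were found among the 19301 genes of the expression table. TSCs were primary cells grown out of collagenase-digested mouse patellar tendon, with no sort or gate described. They were cultured for 4 days in low glucose medium (LG) or in high fat, high glucose medium (HFHG), which was high glucose medium with palmitic acid, a saturated fatty acid, and each group held 4 biological replicates. No genetic change is named for either group, and the age of the mice was not given in the sources used here. Expression was measured by sequencing of mRNA and is given as FPKM, the reads of a gene divided by its length and by the mapped reads of the library, so that levels can be set side by side between genes.

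A myofibroblast is a mesenchymal cell that has taken on contractile bundles of actin and myosin, called stress fibres. Such cells close wounds and stiffen scars, also in tendon, and smooth muscle α-actin (Acta2) is their best known marker. Transcription of many of these genes is driven by serum response factor (SRF) with its cofactors MRTF or myocardin, by YAP or TAZ with TEAD factors, and by TGF-β signalling. The contractile members are the smooth muscle actins Acta2 and Actg2, the smooth muscle myosin heavy chain Myh11, the regulatory light chain Myl9, and the thin filament proteins transgelin (Tagln, also SM22α), calponin 1 (Cnn1), caldesmon (Cald1) and the tropomyosins Tpm1 and Tpm2. Postn encodes periostin, a matricellular protein that activated fibroblasts secrete, and is no part of the contractile machinery.

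Most of the contractile genes rose in the HFHG group, and most by less than 2-fold. Of the 9 members with enough signal for the test, 8 were higher in HFHG at an adjusted p-value below 0.05 (limma, with adjustment over 11710 genes) and 0 were lower. Of all genes tested, 64.8% passed the same rule, 34.0% as higher and 30.8% as lower. Of the tested members, only Cnn1 rose past a fold of 2, a rule that 3.68% of all genes met in that direction. The median log2 fold change was 0.28 over the 9 members and 0.02 over all genes tested. The HFHG and LG libraries did not overlap for 8 of the 10 members, the exceptions being Actg2 and Postn, and each of the 8 was higher in HFHG. Among all genes tested, 59.2% did not overlap, 31.1% as higher and 28.1% as lower in HFHG. All 9 tested members passed the minimum in all 8 libraries, so none entered the test through 1 group alone, and Myh11 lay below the minimum in all 8.

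The 10 genes together summed to 545 to 562 FPKM in the HFHG libraries and to 462 to 466 FPKM in the LG libraries. They took 0.236% to 0.246% of the reads in HFHG and 0.206% to 0.214% in LG. In LG, the order of levels from highest to lowest was Cald1, Tpm1, Tagln, Myl9, Acta2, Postn, Tpm2, Cnn1, Actg2 and Myh11. In this order the libraries of Myl9 and Acta2 overlapped, as did those of Cnn1 and Actg2. In HFHG, Acta2 stood above Myl9 and Tpm2 stood above Postn, and the other places were as in LG.

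**Figure D1:**
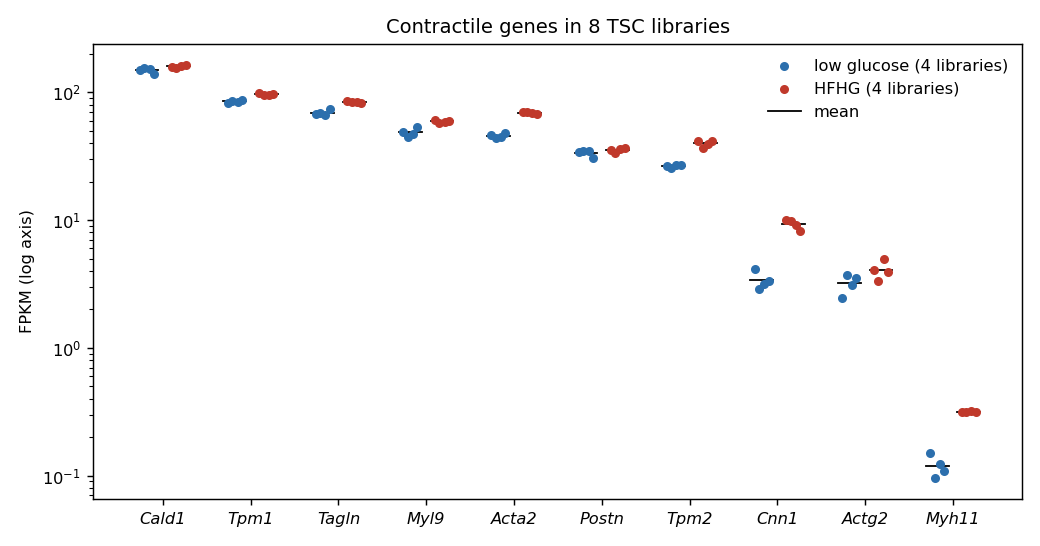
FPKM of the 10 genes (log axis) in each of the 4 LG libraries (blue) and 4 HFHG libraries (red), with a line at the group mean and the genes ordered by their LG level. The groups are apart for every gene except Actg2 and Postn, and the widest gaps are those of Cnn1 (2.90 to 4.13 against 8.24 to 10.1) and Myh11 (0.0955 to 0.152 against 0.314 to 0.318).

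Acta2 encodes the actin isoform of the contractile stress fibre (GRCm38 chr19:34241090-34255590, minus strand). Its level was 70.3, 69.8, 68.9 and 67.5 FPKM in HFHG replicates 1 to 4 and 46.7, 43.7, 44.8 and 47.6 FPKM in LG replicates 1 to 4. Every HFHG library lay above every LG library, with a gap many times the spread within either group. The means were 45.7 ± 1.77 FPKM in LG and 69.1 ± 1.22 FPKM in HFHG (SD, n = 4). Acta2 rose by 0.60 on the log2(FPKM + 0.1) scale (SE 0.0317, 95% interval 0.53 to 0.67), a 1.51-fold change (limma, adjusted p = 4.6e-09).

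Actg2, the γ-actin of visceral smooth muscle (chr6:83512905-83536265, minus strand), was a low-level gene in these cells. It measured 4.09, 3.33, 4.99 and 3.93 FPKM in HFHG and 2.44, 3.71, 3.09 and 3.53 FPKM in LG. The groups overlapped, since HFHG replicate 2 lay below LG replicates 2 and 4. Actg2 passed the threshold with a log2 fold change of 0.35 (SE 0.135, 95% interval 0.06 to 0.64, limma adjusted p = 0.0372), while an exact two-sided permutation test of its FPKM gave p = 0.0857. The call was lost under 7 of 18 alternative settings, among them leaving out HFHG replicate 3 (log2 fold change 0.25, adjusted p = 0.116) or LG replicate 1 (0.23, adjusted p = 0.110). Only 110 to 236 reads per library lay behind these values. Acta2 and Actg2 encode nearly identical proteins. How any reads that match both genes were assigned is not given in the sources used here, so the Actg2 level is uncertain.

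Myh11, the heavy chain of smooth muscle myosin (chr16:14194535-14291372, minus strand), was close to the lower limit of detection. It measured 0.318, 0.316, 0.318 and 0.314 FPKM in HFHG and 0.152, 0.0955, 0.124 and 0.109 FPKM in LG. The groups did not overlap, and the lowest HFHG value was above the highest LG value by more than the range within LG. Per library, 84 to 89 reads in HFHG and 26 to 39 reads in LG lay behind these values. The CV between replicates was 0.653% in HFHG and 20.1% in LG, where counting error alone gives 10.8% and 17.7%. The HFHG values thus lay closer together than counting allows on average, and their closeness is no measure of precision. The ratio of the pooled reads, scaled to the library totals, was 2.65 (95% exact interval 2.15 to 3.27, for counting error only). An exact two-sided permutation test gave p = 0.0286, the smallest that 4 against 4 libraries allow. With the minimum on low values removed, limma gave a log2 fold change of 0.93 (adjusted p = 0.000193), and the added 0.1 FPKM makes this smaller than the ratio of reads.

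Myl9 encodes the myosin regulatory light chain whose phosphorylation switches contraction on (chr2:156775420-156781658, plus strand). It measured 61.1, 56.9, 58.4 and 59.9 FPKM in HFHG and 48.9, 44.9, 47.2 and 53.5 FPKM in LG. The groups did not overlap, and LG replicate 4 came nearest to the HFHG libraries. Myl9 rose by 0.28 on the log2 scale (SE 0.0466, limma adjusted p = 0.000169), from 48.6 ± 3.62 to 59.1 ± 1.83 FPKM (SD, n = 4).

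Cnn1 showed the largest log2 fold change of the tested members, and 1.47% of the genes tested had a larger one. Calponin 1 binds actin and restrains the myosin motor, and its gene (chr9:22099216-22109630, plus strand) is a marker of differentiated smooth muscle. Cnn1 measured 10.1, 9.87, 9.13 and 8.24 FPKM in HFHG and 4.13, 2.90, 3.18 and 3.34 FPKM in LG. The lowest HFHG library lay far above the highest LG library, which was LG replicate 1. Cnn1 rose by 1.44 on the log2 scale (SE 0.0983, 95% interval 1.23 to 1.66, limma adjusted p = 4.99e-08), a 2.72-fold change. The CV between replicates was 8.94% in HFHG and 15.5% in LG, where counting error alone gives 4.26% and 7.17%.

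Tagln encodes the actin cross-linking protein transgelin (chr9:45929619-45936058, minus strand). It measured 85.4, 84.1, 84.0 and 82.3 FPKM in HFHG and 67.1, 68.4, 66.5 and 74.1 FPKM in LG. HFHG replicates lay close together, and LG replicate 4 stood above the other LG libraries but below all HFHG libraries. Tagln rose by 0.28 on the log2 scale (SE 0.0341, limma adjusted p = 1.07e-05), a 1.22-fold change. Tagln overlaps Pcsk7 and the antisense gene Gm48529, both on the opposite strand. The libraries were made with a stranded kit, but whether strand was used in counting is not given in the sources used here.

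The tropomyosins lie along the actin filament and set which proteins can bind it. Tpm2 (chr4:43514711-43523765, minus strand) measured 41.3, 36.9, 39.5 and 41.5 FPKM in HFHG and 26.4, 25.7, 26.8 and 27.1 FPKM in LG. Tpm1 (chr9:67022590-67049406, minus strand) measured 98.0, 94.9, 95.4 and 97.7 FPKM in HFHG and 82.9, 85.2, 84.5 and 87.5 FPKM in LG. Neither gene overlapped between the groups, and the gap was wider for Tpm2. Tpm2 rose by 0.58 on the log2 scale (SE 0.0398, limma adjusted p = 5e-08). Tpm1 rose by 0.18 (SE 0.0254, limma adjusted p = 3.93e-05). Tpm1 and Cald1 make both muscle and non-muscle proteins by alternative splicing, and the table holds 1 value per gene, so these forms were not separated.

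Cald1, which binds actin, myosin and tropomyosin, had the highest level of the 10 genes (chr6:34598500-34775473, plus strand). It measured 157, 156, 159 and 164 FPKM in HFHG and 150, 153, 151 and 138 FPKM in LG. The groups were apart by a narrow margin, and LG replicate 4 was the lowest library. Cald1 rose by 0.10 on the log2 scale (SE 0.0331, 95% interval 0.03 to 0.18, limma adjusted p = 0.0157), a 1.07-fold change. Without HFHG replicate 4 the change was 0.09 and the call was lost (adjusted p = 0.0505). The genes Gm13861, Npn2 and Gm14547 lie within Cald1 on the opposite strand and are annotated as non-coding.

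Postn (chr3:54361109-54391037, plus strand) was the tested member that did not pass the threshold. It measured 35.1, 33.4, 35.8 and 36.5 FPKM in HFHG and 34.0, 34.4, 34.6 and 30.8 FPKM in LG. The groups overlapped, and the lowest value was that of LG replicate 4. The log2 fold change was 0.07 with a 95% interval of -0.02 to 0.17 (limma adjusted p = 0.153). After rescaling to the same sum (0.13, adjusted p = 0.0295) or quantile normalization (0.12, adjusted p = 0.0341) it passed the threshold.

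**Figure D2:**
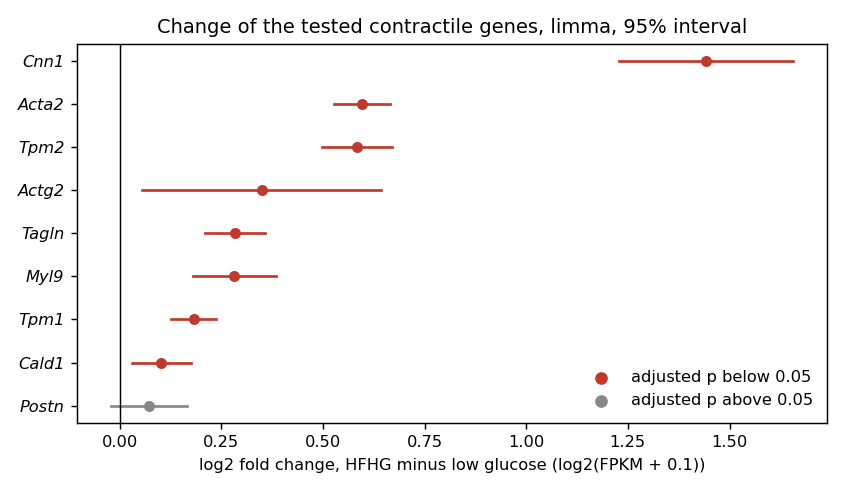
Log2 fold change, HFHG minus LG, of the 9 tested members on the log2(FPKM + 0.1) scale, with 95% intervals from limma (points in red have an adjusted p-value below 0.05, grey above). Cnn1 (1.44) stands apart from Acta2 (0.60) and Tpm2 (0.58), and the interval of Postn includes 0.

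The contractile genes differed in which library was highest within a group. LG replicate 4 was the highest LG library for Acta2, Tagln, Myl9, Tpm1 and Tpm2, and the lowest for Cald1 and Postn. This library also differed from the other LG libraries by gene length. Its median log2 difference from them was 0.08 over tested genes of 206 to 2099 bases, which include Tagln, Myl9, Cnn1 and Actg2, and -0.09 over genes of 5511 bases or more, which include Cald1. Without LG replicate 4, 8 members were higher in HFHG, as with it. The part of gene length in these values was not tested.

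SRF drives its target genes through a short DNA element, the CArG box. The upstream sequences of Acta2, Myl9 and Cnn1 are shown because Acta2 is the defining gene of the group, Myl9 held the only exact CArG box among the members with a promoter entry, and Cnn1 had the largest change of the tested members. They are the 250 bases before the RefSeq start of the gene (GRCm38.p6), 5′ to 3′ on the strand of the gene, at chr19:34255374-34255623 (minus), chr2:156775214-156775463 (plus) and chr9:22099003-22099252 (plus). Capitals mark a CArG box (CC and GG around 6 letters that are A or T, the site of SRF), a CArG box with 1 G or C inside, or the TEAD factor element CATTCC, which reads as GGAATG on the other strand.
Acta2: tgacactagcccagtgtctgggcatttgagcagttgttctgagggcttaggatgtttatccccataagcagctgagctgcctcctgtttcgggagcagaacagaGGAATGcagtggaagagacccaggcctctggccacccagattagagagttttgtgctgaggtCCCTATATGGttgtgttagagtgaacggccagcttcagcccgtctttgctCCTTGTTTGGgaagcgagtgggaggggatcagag
Myl9: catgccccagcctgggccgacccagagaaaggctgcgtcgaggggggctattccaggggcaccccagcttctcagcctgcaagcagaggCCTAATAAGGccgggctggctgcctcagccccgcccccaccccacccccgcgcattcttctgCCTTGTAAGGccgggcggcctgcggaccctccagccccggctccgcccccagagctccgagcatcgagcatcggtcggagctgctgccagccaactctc
Cnn1: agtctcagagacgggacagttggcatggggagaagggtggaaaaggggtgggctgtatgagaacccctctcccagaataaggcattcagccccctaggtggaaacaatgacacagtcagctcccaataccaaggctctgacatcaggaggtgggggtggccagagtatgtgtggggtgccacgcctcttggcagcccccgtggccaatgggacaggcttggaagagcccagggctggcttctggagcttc

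RefSeq promoters were at hand for 7 of the 10 members, not for Tagln, Actg2 and Myh11. An exact CArG box was found on either strand in 1 of the 7, Myl9, at 161 to 152 bases before the start, and in 1.62% of 27025 genes with a promoter. Allowing 1 G or C inside the box added Acta2, at 84 to 75 and 34 to 25 bases before the start, which made 2 of 7 against 9.78% of all genes. CATTCC was found in Acta2 (146 to 141 bases before the start), Cald1 (153 to 148) and Tpm1 (56 to 51), or 3 of 7 against 14.4% of all genes. Cnn1, Tpm2 and Postn held none of these motifs in this window. Positions here count from the RefSeq start. The gene start in GENCODE, used for the gene coordinates above, lies farther upstream by 217 bases in Acta2, 44 in Myl9 and 37 in Cnn1, so that the marked letters of Acta2 fall inside the GENCODE gene and those of Myl9 before it. A match is a description of the letters and no measure of binding.

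Because FPKM is per length, the share of each protein family taken by its contractile member could be given in each library, as a description with no test. Acta2 made up 5.73% ± 0.0406 of the summed FPKM of 6 actins in HFHG and 3.36% ± 0.0919 in LG (SD, n = 4). The cytoplasmic actins Actb and Actg1 went from 757 ± 25.1 to 695 ± 9.95 FPKM and from 549 ± 12.9 to 436 ± 9.36 FPKM. Actg1 fell by 0.33 on the log2 scale (limma adjusted p = 8.31e-08) and Actb fell by 0.12 (adjusted p = 0.000839), but was higher in HFHG by 0.22 after quantile normalization. The skeletal muscle actin Acta1 fell by 1.82 on the log2 scale (adjusted p = 5.23e-07), from 3.38 ± 0.378 to 0.904 ± 0.252 FPKM, so actin isoforms did not move together.

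Cnn1 was a minor calponin and rose in share from 1.31% ± 0.223 in LG to 3.96% ± 0.407 in HFHG, while the non-muscle calponins Cnn2 and Cnn3 fell by 0.15 and 0.20 on the log2 scale (adjusted p = 0.0014 and 0.00012). Tagln made up 25.8% ± 0.495 of the transgelins in LG and 31.4% ± 0.502 in HFHG, while Tagln2 fell by 0.12 (adjusted p = 0.00403), a call that quantile normalization removed (adjusted p = 0.118). Tpm2 took 4.88% ± 0.108 of the tropomyosins in LG and 6.69% ± 0.322 in HFHG, and Tpm1 took 15.7% ± 0.305 and 16.2% ± 0.168. The major tropomyosin Tpm4 rose by 0.10 (adjusted p = 0.000293) and Tpm3 fell by 0.11 (adjusted p = 0.00573), a call lost with rescaling to the same sum (adjusted p = 0.14) and with quantile normalization (adjusted p = 0.126). The Tpm1 share went the other way after quantile normalization, with a difference of -0.51 percentage points against 0.555.

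Myl9 made up 5.71% ± 0.285 of the light chains in LG and 6.65% ± 0.255 in HFHG, behind Myl6, Myl12a and Myl12b, of which Myl12a rose by 0.13 (limma adjusted p = 0.00138) and the other two did not pass the threshold. With quantile normalization the difference in Myl9 share was 0.302 percentage points against 0.947. Myh11 made up 0.0777% of the myosin heavy chains in LG and 0.203% in HFHG, far behind the non-muscle heavy chain Myh9 at 149 FPKM in both groups. The other tested non-muscle chain, Myh10, rose by 0.27 (adjusted p = 0.00108). Of the 8 shares computed, those of Acta2, Myh11, Myl9, Cnn1, Tagln, Tpm1 and Tpm2 did not overlap between the groups, and that of Actg2 did. Over the list of 14 tested non-member paralogs, 3 were higher (21.4%), 7 were lower (50%) and 4 did not pass the test. Their median log2 fold change was -0.06, and 34.0% of all genes tested were higher and 30.8% lower. Quantile normalization turned the paralog counts to 6 higher and 4 lower. Tgfbi, the relative of Postn in this list, differed by 0.04 on the log2 scale (limma adjusted p = 0.589). Actc1, Tagln3 and Myh14 were too low to be tested, with highest values of 0.522, 0.345 and 0.151 FPKM, and Actc1 was at 0 in HFHG replicates 3 and 4.

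**Figure D3:**
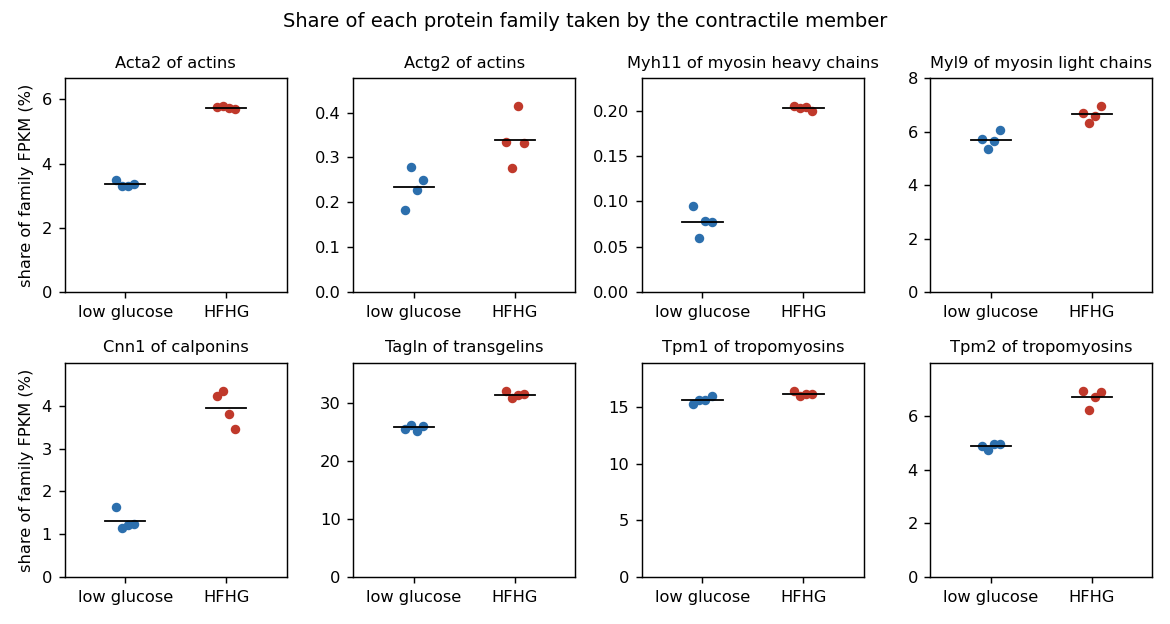
Share of the summed FPKM of a protein family (in %, axes from 0) taken by each contractile member, in each of the 4 LG libraries (blue) and 4 HFHG libraries (red), with a line at the mean. The shares of Cnn1 (1.31% and 3.96%) and Myh11 (0.0777% and 0.203%) show the gap most plainly, followed by Acta2 (3.36% and 5.73%). The Tpm1 shares lie close together (15.7% and 16.2%), and those of Actg2 overlap.

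The transcription factors of these genes were listed next. The list held SRF, MRTF, YAP and TEAD factors and Klf4. Of its 10 tested genes, 3 were higher, 1 was lower and 6 did not pass the test, with a median of 0.01. The share that was higher, 30%, was near the 34.0% of all genes tested, and the share that was lower, 10%, was below 30.8%. A further gene of the list was lower, making 2, with median-ratio scaling, with voom on recovered reads, and without LG replicate 4. Mrtfa, the actin-sensing cofactor of SRF, rose by 0.57 (SE 0.0507, limma adjusted p = 6.49e-07), from 8.99 ± 0.569 to 13.4 ± 0.419 FPKM. Tead3 rose by 0.59 (adjusted p = 8.64e-08) and Yap1 by 0.41 (adjusted p = 2.85e-08). Srf itself fell by 0.17 (adjusted p = 0.0041), from 12.7 ± 0.556 to 11.2 ± 0.328 FPKM. Mrtfb was at 3.47 ± 0.227 FPKM in LG and 3.48 ± 0.249 FPKM in HFHG (log2 fold change 0.01, adjusted p = 0.956). Myocd, the myocardin of smooth and cardiac muscle, did not pass 0.03 FPKM in any library.

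The enzymes that switch contraction on and off act on Myl9. Of 20 genes in this list, 12 were higher (60%), 5 were lower (25%) and 3 did not pass the test, with a median of 0.16. Over all genes tested, 34.0% were higher and 30.8% were lower. With quantile normalization the number lower in the list was 3. Ppp1r14a, which encodes the smooth muscle inhibitor of myosin phosphatase (CPI-17), rose by 1.96 (limma adjusted p = 6.01e-08), from 0.649 ± 0.146 to 2.77 ± 0.229 FPKM. Mylk, the kinase of the light chain, rose by 0.67 (adjusted p = 1.46e-05) and stayed below 2 FPKM. Ppp1r14b, a more abundant relative of Ppp1r14a named after its values were seen, fell by 0.58 (adjusted p = 7.7e-09), from 134 ± 5.51 to 89.6 ± 2.6 FPKM.

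Of 21 tested stress fibre and focal adhesion partners, 13 were higher (61.9%), 4 were lower (19.0%) and 4 did not pass the test. Their median was 0.39, and over all genes tested 34.0% were higher and 30.8% were lower. The number lower was 2 with quantile normalization and with rescaling to the same sum. The intermediate filament gene Synm rose by 1.34 (limma adjusted p = 5.44e-06), the actin nucleator of smooth muscle Lmod1 by 1.28 (adjusted p = 5.12e-06) and Filip1l by 1.27 (adjusted p = 2.21e-10). Synm and Lmod1 were low, at means of 1.09 and 1.53 FPKM in HFHG. The mean of Synm in LG lay below the minimum of 0.5 FPKM. Synm thus entered the test through the HFHG libraries, where it was higher, and its call carries little weight. With a minimum of 1 FPKM, 12 genes of the list were higher. Wider sets were taken from the annotation of the deposited table and chosen after values were seen. Among them, KEGG vascular smooth muscle contraction had 43 of 76 tested genes higher (56.6%) and 18 lower (23.7%). Acta2, Actg2, Cald1, Myh11 and Myl9 belong to it. The GO term stress fiber had 33 of 68 higher (48.5%) and 14 lower (20.6%). That of actomyosin structure organization, which holds Cnn1, had 11 of 21 higher (52.4%) and 6 lower (28.6%).

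Upstream of the contractile genes, 7 of 14 TGF-β genes were higher (50%), 4 were lower (28.6%) and 3 did not pass the test, with a median of 0.08. The share that was lower was near the 30.8% of all genes tested, of which 34.0% were higher. Ltbp1, a latent TGF-β binding protein that stores the ligand in the matrix, rose by 2.03 (limma adjusted p = 2.3e-11), from 2.58 ± 0.186 to 10.8 ± 0.336 FPKM. The ligand Tgfb3 rose by 1.65 (adjusted p = 2.22e-12), and Ltbp2 by 1.48 (adjusted p = 3.43e-12). Of 10 targets of YAP and MRTF that answer to mechanical load, 6 were higher (60%), 2 were lower (20%) and 2 did not pass the test. Thbs1 rose by 1.18 (adjusted p = 2.62e-12) and Ccn1 by 0.80 (adjusted p = 1.87e-11), while Ankrd1 fell by 1.34 (adjusted p = 2.53e-12), from 88.1 ± 3.04 to 34.7 ± 0.827 FPKM.

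Around Postn, 8 of 12 matrix and receptor partners were higher (66.7%) and 4 were lower (33.3%), with a median of 0.54. The shares of all genes tested were 34.0% higher and 30.8% lower. With quantile normalization the number of partners lower was 2. Col1a1, the main collagen of tendon, rose by 1.36 (limma adjusted p = 1.95e-13), and tenascin C (Tnc), which periostin binds, rose by 1.06 (adjusted p = 1.38e-11). Itgb3, a subunit of an integrin that binds periostin, fell by 1.05 (adjusted p = 8.18e-10). Postn thus had an interval of -0.02 to 0.17 beside partners that passed the test in both directions.

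**Figure D4:**
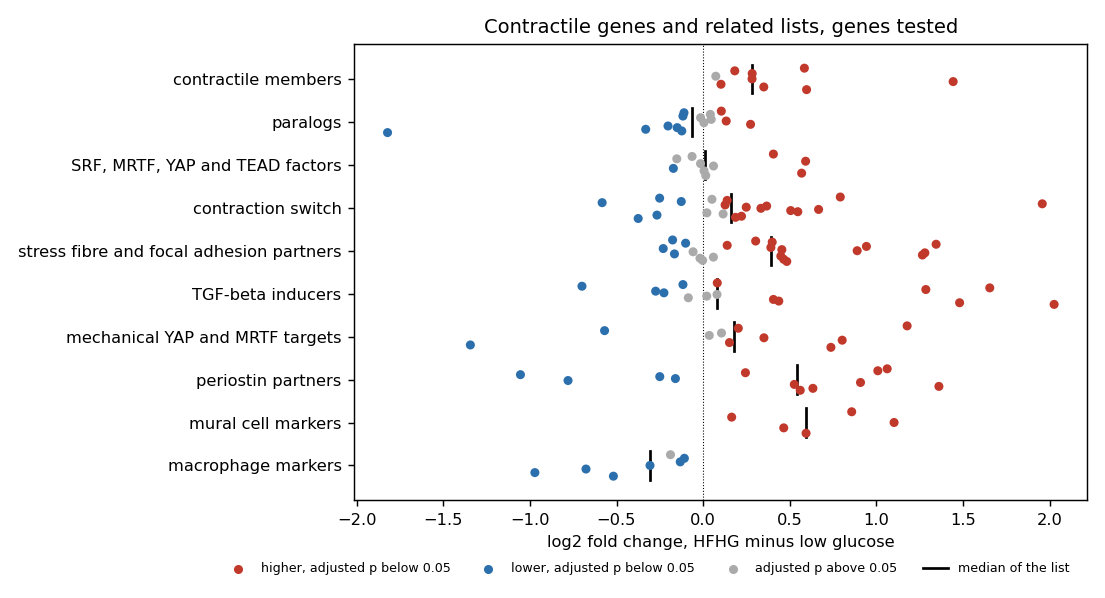
Log2 fold change, HFHG minus LG, of each tested gene in the contractile group and in 9 related lists (red: higher and blue: lower at an adjusted p-value below 0.05, grey: above 0.05, black line: median of the list). The contractile members have no gene to the left of 0 (median 0.28), the paralogs lie mostly to the left (median -0.06), and the macrophage markers all lie to the left (median -0.31).

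Acta2, Tagln, Cnn1 and Myh11 are also expressed by mural cells, the smooth muscle cells and pericytes of vessels, so markers of other cell types were counted. In bulk RNA, fewer cells of a type and less RNA per cell cannot be told apart. All 5 tested mural markers of the list of 9 were higher in HFHG, as were 34.0% of all genes tested. These markers were led by Notch3 (1.10, limma adjusted p = 6.7e-08), Steap4 (0.86, adjusted p = 3.89e-09) and Cspg4 (0.59, adjusted p = 4.38e-06). The summed level of the 9 was 71.8 to 73.4 FPKM in HFHG and 48.3 to 51.7 FPKM in LG. The more restricted markers of the list were near 0, with Rgs5 between 0.0494 and 0.257 FPKM and Kcnj8 and Higd1b at 0 in some libraries. The part of mural cells in the contractile values was not tested.

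Macrophage markers moved the other way. Of 7 tested, 6 were lower in HFHG (85.7%, against 30.8% of all genes tested) and 1 did not pass the test. The lower ones were led by C1qa (fell by 0.97, limma adjusted p = 2.58e-09), C1qb (fell by 0.68, adjusted p = 8.94e-05) and Adgre1 (fell by 0.52, adjusted p = 1.29e-07). The summed level of the 8 listed was 1709 to 1759 FPKM in HFHG and 1870 to 1950 FPKM in LG, nearly all of it Lyz2, and no listed marker was at 0. Lyz2 fell by 0.11 (adjusted p = 0.00044) and showed a log2 difference of 0.01 after quantile normalization (adjusted p = 0.642). How far this moved the contractile values was not tested. Skeletal muscle markers were at or near 0, with a highest value of 1.99 FPKM over 11 genes, and Myod1, Pax7, Myh1, Myh2, Myh4, Ckm and Tnni2 were at 0 in at least 1 library. Endothelial markers summed to 1.24 to 1.38 FPKM in HFHG and 0.974 to 1.14 FPKM in LG. Tek, the only one of the 6 that was tested, rose by 0.47 (adjusted p = 0.00576), a call that quantile normalization removed (adjusted p = 0.0565). For the labelled cell type, 7 of 10 tendon and mesenchymal markers were higher (70%) and 2 were lower (20%), against 34.0% and 30.8% of all genes tested. The 10 markers summed to 2013 to 2054 FPKM in HFHG and 1446 to 1480 FPKM in LG. Pdgfra rose by 1.20 (adjusted p = 2.19e-11), Thbs4 by 1.14 (adjusted p = 5.34e-13) and Tnmd by 0.86 (adjusted p = 0.0164). No gene of this list had a log2 fold change below -0.35. Tnmd was at 1.10 ± 0.0908 FPKM in HFHG and 0.614 ± 0.298 FPKM in LG, near the minimum of 0.5 FPKM. By qPCR, the paper reported lower Scx and Tnmd in HFHG medium, the opposite direction for Tnmd. The reason for this difference was not tested.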

How the data were processed

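mRNA of 4 HFHG and 4 LG replicates was sequenced from stranded libraries, and the groups and replicate numbers were taken from the labels. The authors deposited FPKM values for 19301 genes, with replicates not pooled. The submitters' processing notes name HISAT2 2.1.0 and mm10. The counting program, its annotation and its use of strand are not given in the sources used here. Whole reads were recovered from the FPKM steps for 19301 of 19301 genes (100%, tolerance 0.0001 reads), which gave totals of 34308108 to 37362725 reads per library and 16523 to 17015 genes above 0. On simulated data this search found 8 of 8 totals and the reads of 99.8% of 13515 genes. The reads served for depth, for Myh11 and for an added fit.

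The test took the 11710 genes that reached 0.5 FPKM in 4 or more libraries and used limma 3.58.1 in R 4.3.3 on log2(FPKM + 0.1), with an intensity trend, HFHG minus LG, and Benjamini-Hochberg adjustment over all of them. This scale understates the change of low genes. Called means an adjusted p-value below 0.05. On simulated data with 11710 genes, 70%, 86%, 98% and 96% of 50 genes were called at log2 fold changes of 0.3, 0.6, 1 and 1.5. No other genes were changed there, while 64.8% of genes were called in the real data. The adjustment was thus stricter in the simulation, and these are not the detection rates of the real comparison. Permutation tests were exact over the 70 arrangements of 4 against 4 and two-sided (scipy 1.17.1). The labels do not say whether replicate numbers pair the samples, and the main test did not pair them.

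The members and lists were chosen with earlier results of these data known. The text names all 10 members, all measured genes of their protein families and Tgfbi, the 3 called genes of each other list that changed most, and Srf, Mrtfa, Mrtfb and Myocd. A gene of the contraction switch list that this rule names is not reported here. Marker genes named at or near 0, Lyz2, Ppp1r14b, the wider annotation sets and the CArG box with 1 G or C inside were chosen after values were seen. Gene positions come from GENCODE M21 (GRCm38). Alternatives were quantile normalization, median-ratio scaling, FPKM rescaled to equal sums, a minimum of 1 FPKM or none, a pseudocount of 0.01 or 1, a robust fit, the replicate number as a block, leaving out each library, and voom on the recovered reads, which was added after seeing the data.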

Additional observations from a re-analysis of the deposited data

Results flagged for a closer look

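Among 98 groups of 4 libraries checked for a library far from the others, 5 were picked out, and chance alone picks out about 1 in 20 groups. Postn was 30.8 FPKM in LG replicate 4 and 34.0 to 34.6 FPKM in the other LG libraries. Yap1 was 41.2 FPKM in LG replicate 1 against 39.8 to 40.0 FPKM. Filip1l was 21.0 FPKM in HFHG replicate 4 against 19.9 to 20.1 FPKM. Ankrd1 was 83.6 FPKM in LG replicate 3 against 89.0 to 90.0 FPKM. Pdgfra, a marker of mesenchymal cells, was 9.99 FPKM in LG replicate 1 against 9.44 to 9.48 FPKM. Of these 5 genes, only for Postn was the distance of that library from its group as large as the difference between the groups.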

How the results depend on the processing

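Over 18 alternatives, 6 to 9 members were higher in HFHG, 0 were lower, and 1 was past a fold of 2. Acta2, Tagln, Myl9, Cnn1, Tpm1 and Tpm2 stayed higher at an adjusted p-value below 0.05 in all 18, with Cnn1 between 1.24 and 1.54 and Acta2 between 0.58 and 0.66 on the log2 scale. Actg2 lost its call in 7, with adjusted p-values from 0.0134 to 0.117 over all 18, and Cald1 in 1 (0.0007 to 0.0505). With 1 library left out, the log2 ratio of Myh11 was 1.31 to 1.53, at the smallest p-value that 3 against 4 libraries allow in the exact permutation test (0.0571). With quantile normalization the differences in family share were 1.64 percentage points for Acta2 (2.37 as reported), 0.0328 for Actg2 (0.104), 0.0958 for Myh11 (0.125), 0.302 for Myl9 (0.947), 1.29 for Tpm2 (1.81) and -0.51 for Tpm1 (0.555). The cause was not tested. Over all genes 3613 to 4682 were higher and 3002 to 4011 lower. Quantile normalization gave 3613 and 4011, and rescaling to the same sum gave 4682 and 3002, or 60.9% of calls higher against 52.5% as reported.

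Same-numbered replicates did not deviate together, with correlations of -0.02, -0.01, -0.01 and -0.07. With the replicate number as a block, 8 members were higher and 0 lower, with Cald1 at an adjusted p-value of 0.039 (limma) and Actg2 at 0.0411, and over all genes 3841 were higher and 3501 lower. The depth limits Myh11 and Actg2, with 26 to 236 reads per library.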
